A study of Mus musculus with 46 samples.

Results

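The transcripts of 10 genes of mitophagy, the removal of mitochondria by autophagy, were followed through islets and livers of mice with knockouts of genes that maintain mitochondria. The genes were taken by symbol from the deposited count tables, which list 55487 genes, and each symbol matched 1 row. They are Clec16a, Rnf41, Usp8, Pink1, Bnip3, Bnip3l, Fundc1, Phb2, Optn and Sqstm1, and 10 of the 10 passed the filter on low counts in each of the 3 experiments. Islets came from animals labelled Tfam control (5 female and 3 male libraries) or Tfam KO (4 female and 2 male), and from Clec16a control and Clec16a KO animals on 1 of 2 diets, RFD (4 control and 4 KO libraries) and HFD (6 and 5). Livers were labelled Control (6 libraries), Mfn DKO (4) or Tfam KO (3), and their descriptions carry the letters AAV, a name used for adeno-associated virus vectors. Tfam encodes the factor that packages and transcribes mitochondrial DNA, and Mfn1 and Mfn2 encode the mitofusins that fuse the outer membranes of mitochondria. The labels give no promoter or Cre line, no strain, no age and no written-out name of the diets. They give sex for the Tfam islets alone.

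In mitophagy, a damaged mitochondrion is marked and then wrapped by an autophagosome that carries it to the lysosome. One route starts when the kinase PINK1 stays on the outer membrane and recruits the ubiquitin ligase Parkin, after which adaptors such as optineurin and p62 tie the ubiquitin coat to LC3 on the autophagosome. A second route uses receptors of the mitochondrial membranes, among them BNIP3, NIX, FUNDC1 and prohibitin 2, which bind LC3 themselves. CLEC16A acts upstream in beta cells, in a complex with the ubiquitin ligase NRDP1 (Rnf41) and the deubiquitinase USP8 that sets Parkin activity.

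The depth of a library lay between 55223041 and 83342809 counts for Tfam islets, 16235173 and 55810879 for Clec16a islets, and 41961114 and 56894510 for livers. Tfam stood at 17.2 ± 1.1 CPM (counts scaled by library size) in Tfam KO islets (SD, n = 6) against 39.7 ± 2.3 in controls (n = 8), and at 14.7 ± 1.4 in Tfam KO livers (n = 3) against 58.9 ± 4.0 (n = 6). Mfn1 fell by 2.003 and Mfn2 by 2.04 on the log2 scale in the Mfn DKO livers. Tfam KO liver replicate 3 stood apart from replicates 1 and 2 in several members, although its Tfam level was 15.9 CPM, so changes of members in that group are also given without it. Hepatocyte markers summed to 22317 to 91133 CPM in Tfam KO livers and to 87687 to 132214 CPM in control livers, with 74553 to 95961 CPM in Mfn DKO livers. Of 7 hepatocyte markers, 3 were called lower in Tfam KO livers and 0 in Mfn DKO livers. Fibroblast markers summed to 258 to 305 CPM in Mfn DKO livers, 211 to 251 CPM in Tfam KO livers and 198 to 267 CPM in controls. Of 6, 2 were called higher in Mfn DKO livers (Col1a1 and Col1a2) and 2 in Tfam KO livers (Col1a1 and Pdgfra). Beta-cell markers summed to 105888 to 141177 CPM in Tfam KO islets and to 187969 to 294686 CPM in their controls, with 8 of 8 markers called lower. In these KO islets 2 of 3 delta-cell markers were also called lower. Called higher there were 2 of 6 fibroblast, 1 of 5 duct-cell and 1 of 7 macrophage markers. Of 8 beta-cell markers, 4 (Ins1, Pdx1, Iapp and Nkx6-1) were at 0 in every control liver. These are bulk libraries, in which fewer cells of a type and less RNA per cell cannot be told apart. The part of cell makeup in the differences below was not tested. Fits with a marker score as a covariate are given where they were run.

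The windows before the start sites of 3 genes are shown because they carry the largest changes in islets (Optn and Sqstm1) and in livers (Bnip3 and Sqstm1). They are the 250 bases before the start of the RefSeq gene model on GRCm38.p6, written 5′ to 3′ on the gene's strand, at chr7:138909507-138909756 (minus) for Bnip3, chr2:5064118-5064367 (minus) for Optn and chr11:50210821-50211070 (minus) for Sqstm1. Capitals mark the 1 match found.
Bnip3: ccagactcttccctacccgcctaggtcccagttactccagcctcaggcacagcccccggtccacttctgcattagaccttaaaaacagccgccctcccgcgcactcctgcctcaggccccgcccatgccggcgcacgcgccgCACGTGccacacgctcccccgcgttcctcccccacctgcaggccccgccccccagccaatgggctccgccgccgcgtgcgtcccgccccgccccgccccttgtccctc
Optn: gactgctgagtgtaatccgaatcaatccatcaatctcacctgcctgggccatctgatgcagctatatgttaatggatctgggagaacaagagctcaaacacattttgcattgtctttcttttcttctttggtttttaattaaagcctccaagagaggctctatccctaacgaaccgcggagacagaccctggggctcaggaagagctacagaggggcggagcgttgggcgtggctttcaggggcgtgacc
Sqstm1: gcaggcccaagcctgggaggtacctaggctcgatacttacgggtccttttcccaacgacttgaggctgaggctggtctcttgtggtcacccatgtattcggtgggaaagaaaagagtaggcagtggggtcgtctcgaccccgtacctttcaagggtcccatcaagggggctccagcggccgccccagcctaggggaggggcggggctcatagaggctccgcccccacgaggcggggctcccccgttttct
A search on both strands covered the E-box CACGTG, the hypoxia core ACGTG, which the E-box contains, the antioxidant element TGACNNNGC and the element TGATGNAA of C/EBP and ATF factors. The Bnip3 window held the E-box with its first base at position -108 from the start, and with it the hypoxia core on both strands. The E-box occurs in 6.02% of 32851 promoters of this length and the hypoxia core in 16.6%. Optn and Sqstm1 held none of these letters in this window. Among the other members with an entry (9 of 10 had one), Phb2 held the hypoxia core at -198 and Clec16a held the antioxidant element, found in 10.2% of promoters, at -121. These matches describe letters and not binding.

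The levels of the members were compared with each other on the authors' TPM, a share of transcripts that is corrected for transcript length. In the 18 control islet libraries, Sqstm1, which encodes p62, was the highest at 259 ± 31 TPM, followed by Pink1 at 92.9 ± 13.2 TPM, and the ranges of these genes did not overlap with each other or with the next. Usp8, Bnip3, Phb2, Fundc1, Bnip3l and Rnf41 followed with means of 44.96 down to 22.6 TPM, and each overlapped with its neighbour in this order. The islet experiments differed in this middle group, with Fundc1 at 44.1 TPM in Tfam controls and 27.2 TPM in Clec16a controls, and Bnip3l at 39.9 and 20.7 TPM, so that both ranked above Bnip3 and Phb2 in the first and below them in the second. Optn stood at 11.2 ± 2.1 TPM and Clec16a was the lowest at 6.65 ± 1.196 TPM. In the 6 control livers Pink1 (203 ± 13 TPM) and Sqstm1 (198 ± 12 TPM) overlapped at the top, and Clec16a (6.06 ± 0.38 TPM) and Rnf41 (5.96 ± 0.97 TPM) overlapped at the bottom. Optn was 5.36-fold, Phb2 3.12-fold, Bnip3 2.86-fold and Pink1 2.19-fold higher in control livers than in control islets, with no overlap of libraries. Fundc1 was 4.15-fold and Rnf41 3.78-fold higher in control islets, also with no overlap. Bnip3l, Usp8, Sqstm1 and Clec16a overlapped between the tissues. For Bnip3l the overlap came from the Tfam control islets (34.7 to 48.1 TPM), since the Clec16a control islets (14.3 to 28.1 TPM) lay below every control liver (43.4 to 46.4 TPM). The ratios depend on the scale. With all libraries scaled together, mean log2 CPM centred over the 11 groups was 0.24 for Clec16a in control livers and -0.23 to -0.10 in control islet groups. Sqstm1 was at -0.16 and at -0.39 to -0.17. Both lay higher in livers on that scale and lower on TPM, while the other members kept their direction. Islets and livers came from separate experiments, so the fold ratios have no test. The share of all genes without overlap between the tissues was not counted, so a lack of overlap is not shown to be particular to these members.

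**Figure D1:**
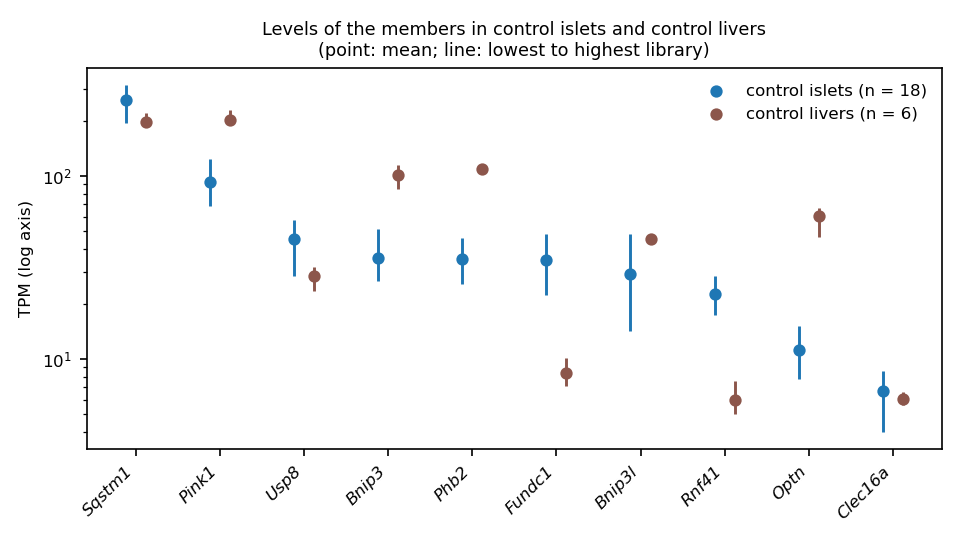
Level of each member in TPM (log axis) in control islets (blue, 18 libraries) and control livers (brown, 6 libraries); points are means and lines run from the lowest to the highest library. Optn, Phb2, Bnip3 and Pink1 lie higher in livers, Fundc1 and Rnf41 higher in islets, and Clec16a at 6.65 TPM in islets and 6.06 TPM in livers.

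The genotype comparisons were fitted over all genes with edgeR's quasi-likelihood F-test, and a gene was called at a Benjamini-Hochberg adjusted p of 0.05 or less. In Tfam KO islets 4 of 10 members were called against 20.9% of all genes tested, with Optn, Sqstm1 and Phb2 higher (11.6% of all genes were) and Bnip3 lower (9.29%). In Clec16a KO islets, averaged over both diets, 3 of 10 were called against 21.6% of all genes, with Optn lower (10.1% of all genes were) and Pink1 and Rnf41 higher (11.6%). On RFD alone 1 of 10 was called (7.52% of all genes) and on HFD alone 1 of 10 (9.58% of all genes). It was Optn in each, and it was lower, as were 3.54% and 3.96% of all genes. In Mfn DKO livers 2 of 10 were called against 9.87% of all genes, Bnip3 and Bnip3l, both lower, as were 4.64% of all genes. In Tfam KO livers 5 of 10 were called against 29.3% of all genes, with Sqstm1 and Fundc1 higher (18.1% of all genes were) and Bnip3, Bnip3l and Pink1 lower (11.3%). With 10 members, shares of 10% to 50% rest on 1 to 5 genes, and in no comparison is the share itself tested. The median log2 fold change of the members lay between -0.04 and 0.10 in these comparisons, and that of all genes between -0.01 and 0.03.

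**Figure D2:**
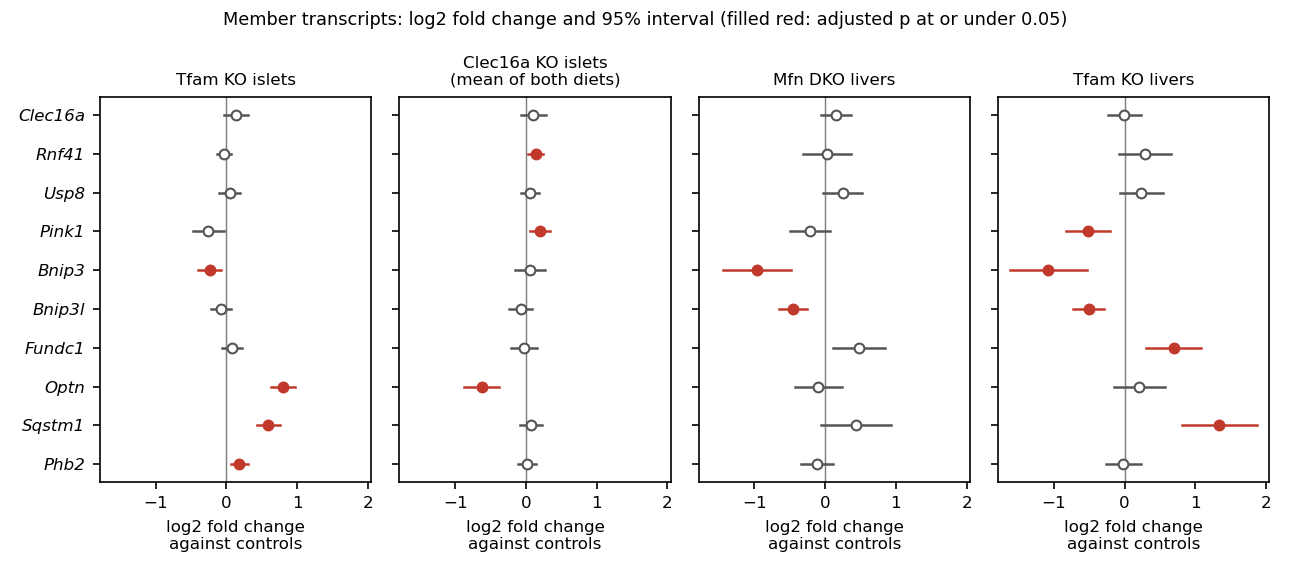
Log2 fold change of each member against its controls with its 95% interval in 4 genotype comparisons; filled red points have an adjusted p of 0.05 or less. Optn is higher in Tfam KO islets (0.80) and lower in Clec16a KO islets (-0.63), and Bnip3 is lowest in the livers (-0.97 and -1.08).

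Of the upstream complex of Clec16a, Rnf41 and Usp8, the member called against controls was Rnf41, in Clec16a KO islets over both diets. Clec16a (ENSMUSG00000068663, chromosome 16, 10545339 to 10744878, plus strand, GRCm38) showed no fall in islets labelled Clec16a KO. On RFD its levels were 21.4, 20.9, 26.4 and 28.4 CPM in controls and 23.4, 26.8, 25.7 and 30.03 CPM in KO. On HFD the 6 controls ran from 21.4 to 31.8 CPM with a median of 27.3, and the KO libraries stood at 28.6, 27.6, 27.8, 23.6 and 32.9 CPM. The groups overlapped on both diets, and the difference over both was 0.10 ± 0.09 on the log2 scale (95% interval -0.07 to 0.28, adjusted p = 0.42). A count over the whole gene does not show the loss of single exons, so this is no check of the deletion. In Tfam KO islets Clec16a stood at 30.1 ± 1.0 CPM against 27.3 ± 3.5 CPM in controls. These groups overlapped and Clec16a was not called. In TPM they did not overlap, at 9.81 to 10.43 in KO and 3.99 to 8.56 in controls. In Tfam KO livers Clec16a stood at 23.96, 23.4 and 23.6 CPM against 21.3 to 24.9 CPM in controls, a difference of -0.00 ± 0.11. With libraries scaled to their total count instead, that difference was 0.43 (adjusted p = 0.015), a scaling that moved the median of all genes in this comparison by 0.43.

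Rnf41 (ENSMUSG00000025373, chromosome 10, 128411657 to 128441441, plus strand), the ubiquitin ligase of the complex, rose slightly in Clec16a KO islets over both diets. It stood at 50.6, 48.2, 44.1 and 50.4 CPM in KO islets on RFD against 41.2, 42.6, 44.8 and 43.4 CPM in controls. On HFD the KO values were 50.2, 48.8, 47.4, 42.8 and 49.7 CPM, and the 6 controls ran from 41.6 to 46.9 CPM with a median of 44.1. In all, 7 of 9 KO libraries lay above each of the 10 controls, and the difference of 0.14 ± 0.05 had an adjusted p of 0.047. The call held in 4 of 19 fits that left out 1 library, and was lost with the sequencing lane as a covariate (0.14, adjusted p = 0.051). Within lanes 7 and 8 the log2 ratio of means was 0.21 and 0.13 on RFD and 0.17 and 0.07 on HFD. Rnf41 stood at 15.3, 19.3 and 10.8 CPM in Tfam KO livers, against 6 controls from 10.98 to 15.8 CPM with a median of 11.9, and the groups overlapped. The difference there was 0.29 ± 0.17 (adjusted p = 0.21), and 0.46 without Tfam KO liver replicate 3, where it was called (adjusted p = 0.023). Usp8 (ENSMUSG00000027363, chromosome 2, 126707328 to 126759297, plus strand), the deubiquitinase that keeps NRDP1 and Parkin in balance, was called in none of the comparisons with controls, with differences from 0.04 to 0.25, and 0.33 (adjusted p = 0.093) in Tfam KO livers without replicate 3.

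Pink1 (ENSMUSG00000028756, chromosome 4, 138313409 to 138326307, minus strand), the kinase that senses loss of membrane potential, moved in opposite directions in different settings. In Clec16a KO islets it stood at 153.7, 125.9, 114.0 and 144.6 CPM on RFD, against 112.5, 120.5, 109.3 and 114.7 CPM in controls. On HFD it stood at 133.3, 137.2, 120.4, 113.4 and 135.2 CPM, against 6 controls from 102.8 to 129.8 CPM with a median of 115.5. The groups overlapped, 5 of 9 KO libraries lay above each of the 10 controls, and Pink1 rose by 0.20 ± 0.07 over both diets (adjusted p = 0.034). This call held in 9 of 19 fits that left out 1 library.

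In livers Pink1 ran from 232.6 to 276.5 CPM in the 6 controls with a median of 255.5. The Tfam KO livers stood at 170.9, 135.5 and 225.8 CPM, each below the lowest control, and Pink1 fell by 0.52 ± 0.15 on the log2 scale (adjusted p = 0.019). The change was -0.75 without Tfam KO liver replicate 3, and the call was lost without replicate 1 or 2 (weakest adjusted p = 0.071). It was also lost when the Tfam KO livers were fitted with the controls alone (-0.53, adjusted p = 0.056). On the deposited TPM scale Pink1 was not lower, at 213 ± 14 TPM in Tfam KO livers and 203 ± 13 TPM in controls. In Mfn DKO livers it stood at 223.5, 226.7, 210.6 and 213.5 CPM, again each below the lowest control, with a difference of -0.22 ± 0.13 (adjusted p = 0.30). There too Pink1 was not lower in TPM, at 215 ± 7, and total-count scaling gave a difference of -0.02 (adjusted p = 0.90). In Tfam KO islets the difference was -0.25 ± 0.11 (adjusted p = 0.10), and KO and control islets overlapped.

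Bnip3 (ENSMUSG00000078566, chromosome 7, 138890836 to 138909519, minus strand), a receptor of the outer mitochondrial membrane that is a known target of hypoxia signalling, had the largest falls in livers. It ran from 90.01 to 128.1 CPM in the 6 control livers, with a median of 105.5. The Mfn DKO livers stood at 61.7, 51.4, 57.3 and 49.2 CPM, and the Tfam KO livers at 50.6, 26.2 and 76.2 CPM. No library of either genotype reached the lowest control, with falls of 0.97 ± 0.22 (adjusted p = 0.019) and 1.08 ± 0.25 (adjusted p = 0.0081) on the log2 scale. Both comparisons use the same 6 controls. The Mfn DKO call was lost without Mfn DKO replicate 2 or 4 (weakest adjusted p = 0.061), while the Tfam KO call held in 9 of 9 such fits, from -1.50 without replicate 3 to -0.76. The levels in TPM were 63.9 ± 6.5 in Mfn DKO, 69.5 ± 21.1 in Tfam KO and 101.3 ± 10.8 in control livers. The window with the E-box shown above is that of Bnip3.

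In Tfam KO islets the change of Bnip3 was smaller and depended on the scale. Female KO islets stood at 29.97, 26.5, 32.0 and 33.1 CPM and male KO islets at 30.05 and 35.2 CPM. Female controls stood at 37.4, 37.1, 29.0, 38.8 and 33.4 CPM and male controls at 35.6, 40.1 and 43.7 CPM. The groups overlapped, and Bnip3 fell by 0.24 ± 0.08 on the log2 scale (adjusted p = 0.040). In TPM the KO islets were not lower, at 38.3 ± 4.1 against 34.7 ± 4.8 in controls, and the call held in 5 of 14 fits that left out 1 library. The difference in Clec16a KO islets was 0.05 ± 0.10.

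Bnip3l (ENSMUSG00000022051, chromosome 14, 66985239 to 67008877, minus strand) encodes NIX, a receptor related to BNIP3 that clears mitochondria from maturing red cells. It ran from 73.6 to 87.8 CPM in control livers, with a median of 80.9. The Mfn DKO livers stood at 60.5, 53.8, 63.7 and 59.8 CPM and the Tfam KO livers at 57.1, 50.6 and 63.7 CPM. All 7 lay below the lowest control, with falls of 0.45 ± 0.09 (adjusted p = 0.012) and 0.51 ± 0.10 (adjusted p = 0.0043) on the log2 scale, and both calls held when any 1 library was left out. The change in Tfam KO livers was -0.61 without replicate 3. With total-count scaling neither fall was called, at -0.26 in Mfn DKO (adjusted p = 0.068) and -0.09 in Tfam KO livers (adjusted p = 0.43). In TPM the level was slightly lower in Mfn DKO livers and not lower in Tfam KO livers, at 40.6 ± 3.0 in Mfn DKO, 48.5 ± 5.4 in Tfam KO and 44.98 ± 1.05 in control livers. No genotype comparison in islets called Bnip3l, with differences from -0.12 to -0.02.

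Fundc1 (ENSMUSG00000025040, chromosome X, 17556564 to 17572325, minus strand), an outer-membrane receptor also tied to hypoxia, rose in Tfam KO livers. It ran from 7.79 to 11.1 CPM in control livers, with a median of 9.28, and stood at 12.1, 20.98 and 11.6 CPM in Tfam KO livers. Each Tfam KO liver lay above the highest control, and the rise was 0.69 ± 0.18 (adjusted p = 0.014). The rise was 0.83 without replicate 3. Without replicate 2 it was 0.37 and was not called (adjusted p = 0.11). The Mfn DKO livers stood at 12.6, 10.7, 13.4 and 14.6 CPM, with 3 of 4 above the highest control and a difference of 0.48 ± 0.17 (adjusted p = 0.087).

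Phb2 (ENSMUSG00000004264, chromosome 6, 124712336 to 124716950, plus strand) encodes prohibitin 2, an inner-membrane protein that binds LC3 once the outer membrane has ruptured. It rose slightly in Tfam KO islets, which stood at 57.1, 61.0, 63.1 and 60.0 CPM in females and 55.8 and 61.6 CPM in males. Controls stood at 47.8, 48.7, 57.1, 57.0 and 49.4 CPM in females and 51.1, 57.6 and 53.6 CPM in males. KO and control islets overlapped, and 4 of 6 KO libraries lay above every control. The rise was 0.18 ± 0.06 (adjusted p = 0.036) and was called in 5 of 14 fits that left out 1 library. In TPM the levels were 44.8 ± 2.8 in KO and 30.2 ± 2.4 in control islets, with no overlap, so the size of the rise depends on the scale. The other genotype comparisons gave differences from -0.12 to 0.05 in Phb2 against their controls, none of them called.

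Optn (ENSMUSG00000026672, chromosome 2, 5020642 to 5064051, minus strand) encodes optineurin, an adaptor that binds ubiquitin chains and LC3 and is a substrate of the kinase TBK1. It rose in Tfam KO islets. Female KO islets stood at 35.2, 29.7, 31.1 and 32.2 CPM and male KO islets at 33.1 and 32.5 CPM. Female controls stood at 15.1, 17.4, 21.5, 20.5 and 20.8 CPM and male controls at 16.8, 19.4 and 16.8 CPM. The groups did not overlap in either sex, and the rise was 0.80 ± 0.08 on the log2 scale (adjusted p = 2.5e-06). It was called in 14 of 14 fits that left out 1 library, from 0.75 to 0.83. Beta-cell markers moved with this group, as given above, and their part in the rise was not tested.

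Optn fell in the islets of Clec16a KO animals. On RFD it stood at 16.3, 17.4, 10.4 and 10.4 CPM, against 20.03, 19.1, 25.3 and 25.2 CPM in controls. On HFD it stood at 15.6, 15.4, 12.5, 16.8 and 10.99 CPM, against 6 controls from 16.4 to 24.4 CPM with a median of 20.2. The groups did not overlap on RFD and overlapped in 1 library of each genotype on HFD. The falls on the log2 scale were 0.73 ± 0.18 on RFD (adjusted p = 0.016), 0.52 ± 0.15 on HFD (adjusted p = 0.033) and 0.63 ± 0.12 over both (adjusted p = 6.7e-04). The call over both diets held in 19 of 19 fits that left out 1 library. The RFD call was lost without control 3 or 4 or KO 3 or 4 (weakest adjusted p = 0.060), and the HFD call in 6 of 11 fits, those without control 2 or 5 or KO 1, 2, 3 or 5 (weakest adjusted p = 0.10). Within the sequencing lanes named for these islets, the log2 ratio of means was -0.66 in lane 7 and -0.54 in lane 8 on RFD, and -0.54 and -0.53 on HFD.

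Markers of several cell types moved with the Clec16a genotype. Of 8 beta-cell markers 3 (Slc2a2, Slc30a8 and Ins2) were called lower over both diets, with sums of 138790 to 250870 CPM in KO islets and 210849 to 349034 CPM in controls. The 5 endothelial markers (Pecam1, Cdh5, Kdr, Plvap and Tek) were all called higher over both diets, and their sum ran from 261.6 to 360.6 CPM in controls and from 311.2 to 598.3 CPM in KO islets. Fibroblast markers summed to 36.2 to 67.6 CPM in controls and 53.7 to 107.5 CPM in KO islets, with 4 of 6 called higher. With the endothelial score as a covariate, a fit added after the data were seen, the difference in Optn over both diets was -0.40 (adjusted p = 0.98), that in Rnf41 0.01 (adjusted p = 0.99) and that in Pink1 0.09 (adjusted p = 0.98), and 0 of 17254 genes were called with edgeR, with 638 at an unadjusted p under 0.05. KO replicate 4 on HFD had an endothelial sum of 311.2 CPM, inside the range of the controls. Its Optn level was 16.8 CPM, above 1 of the 10 controls and below the rest. On RFD, KO replicate 2 had an endothelial sum of 519.2 CPM and Optn at 17.4 CPM, above that same control. KO replicate 1 on RFD had the highest sum, 598.3 CPM, and Optn at 16.3 CPM. These KO libraries had the highest Optn levels among the KO libraries. The remaining ones had sums from 485.6 to 572.2 CPM and Optn from 10.4 to 15.6 CPM. KO libraries other than replicate 4 on HFD had endothelial sums from 485.6 to 598.3 CPM, above every control. A score of these markers thus nearly follows the genotype, and the fit with it cannot tell genotype from endothelial content. The part of these cell types in the changes of Optn, Pink1 and Rnf41 was not tested.

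Sqstm1 (ENSMUSG00000015837, chromosome 11, 50199366 to 50210827, minus strand) encodes p62, an adaptor that carries ubiquitinated cargo to autophagosomes and is itself degraded with it. In Tfam KO islets it stood at 618, 579, 635 and 601 CPM in females and at 565.7 and 568.3 CPM in males. Controls stood at 344, 355, 448, 459 and 358 CPM in females and at 360.1, 419 and 412 CPM in males. The groups did not overlap, and the rise was 0.59 ± 0.08 (adjusted p = 3.8e-05), called in 14 of 14 fits that left out 1 library. In Clec16a KO islets the difference over both diets was 0.07 ± 0.07 (95% interval -0.08 to 0.22, adjusted p = 0.53).

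In livers Sqstm1 ran from 288 to 333 CPM in the 6 controls, with a median of 309. The Tfam KO livers stood at 1144, 859 and 356 CPM, all above the highest control, with replicate 3 close to it. The rise was 1.34 ± 0.25 (adjusted p = 0.0028), 1.67 without replicate 3 and 0.97 at the lowest with another library left out. The Mfn DKO livers stood at 404.5, 446.4, 398.1 and 428.2 CPM, all above the highest control, with a difference of 0.43 ± 0.23 (adjusted p = 0.24). Fitted with the controls alone, without the spread of the Tfam KO livers, the Mfn DKO difference in Sqstm1 was 0.43 with an adjusted p of 0.0023. That fit called 5 of 10 members in Mfn DKO livers, and 27.0% of all genes against 9.87%, adding Sqstm1, Fundc1 (0.48) and Pink1 (-0.22). Mrnip, on the opposite strand, overlaps exons of Sqstm1 and had a median of 2.49 CPM. The strand used in counting is not given in the sources used here, so reads of the 2 genes may not have been told apart where they overlap. Optn showed differences of 0.21 ± 0.17 in Tfam KO livers (adjusted p = 0.37), 0.35 without replicate 3, and -0.10 ± 0.15 in Mfn DKO livers (adjusted p = 0.70). With total-count scaling the difference in Tfam KO livers was 0.67 and was called (adjusted p = 0.012), and in TPM Optn stood there at 111 ± 42 against 60.2 ± 7.2 in controls.

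**Figure D3:**
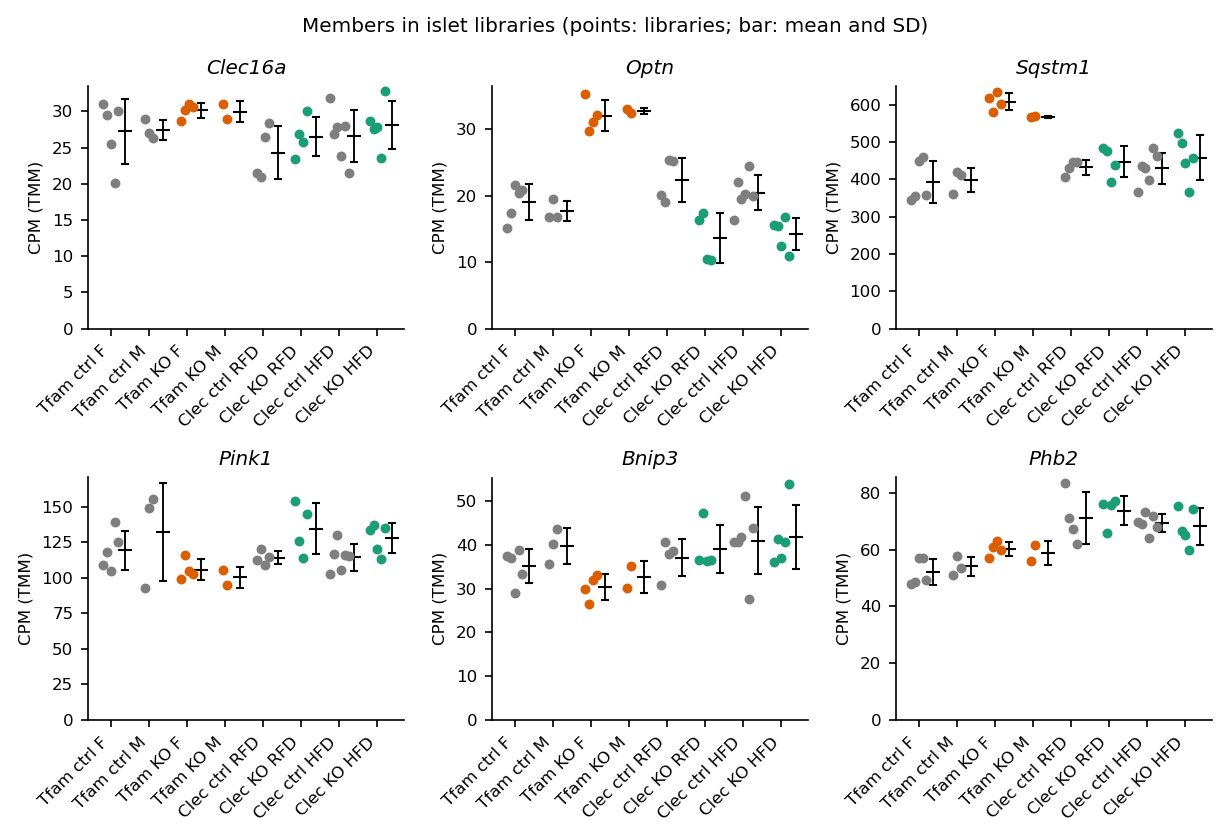
CPM of 6 members in each islet library (points), by group, with mean and SD (black); ctrl, control; Clec, Clec16a; F, female; M, male. Optn lies between 29.7 and 35.2 CPM in all Tfam KO islets, above every Tfam control, and Clec16a overlaps between KO and control islets in both experiments.

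**Figure D4:**
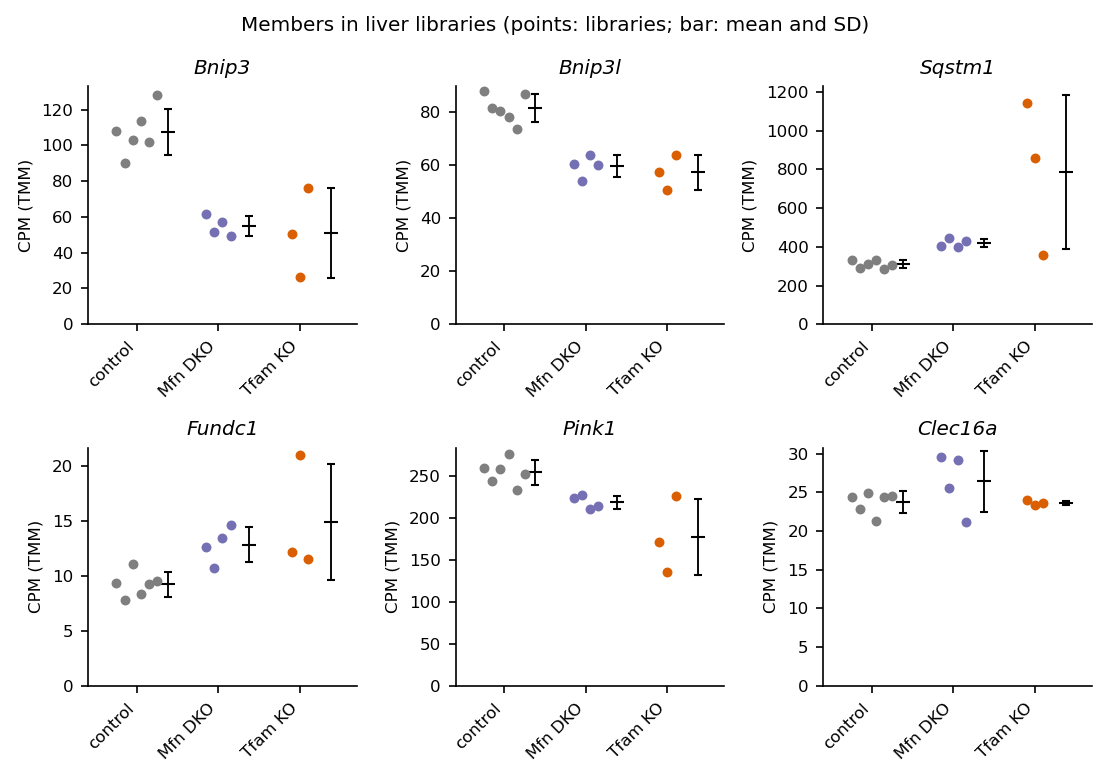
CPM of 6 members in each liver library (points), by group, with mean and SD (black). Bnip3 and Bnip3l lie below the lowest control in all 7 Mfn DKO and Tfam KO livers, and the 3 Tfam KO livers are spread from 356 to 1144 CPM in Sqstm1.

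Differences between the responses were tested in 2 joint fits that were added after the data were seen. In a fit of the 33 islet libraries, in which 16.3% of all genes were called, the Tfam KO effect minus the Clec16a KO effect was called for 4 members. It was 1.42 ± 0.16 for Optn (adjusted p = 1.9e-07), 0.48 ± 0.11 for Sqstm1 (adjusted p = 0.0020), -0.51 ± 0.12 for Pink1 (adjusted p = 0.0036) and -0.20 ± 0.07 for Rnf41 (adjusted p = 0.036). In a fit of the 23 Tfam islet and Tfam liver libraries, in which 18.5% of all genes were called, the Tfam KO effect in livers minus that in islets was also called for 4 members. It was -0.84 ± 0.26 for Bnip3 (adjusted p = 0.028), -0.47 ± 0.12 for Bnip3l (adjusted p = 0.012), 0.57 ± 0.19 for Fundc1 (adjusted p = 0.044) and -0.62 ± 0.18 for Optn (adjusted p = 0.022). For Sqstm1 the difference was 0.76 ± 0.27 (adjusted p = 0.058). Between Tfam KO and Mfn DKO livers, where 0.294% of all genes were called, 0 of 10 members were called with edgeR and 1 of 10 had an unadjusted p under 0.05. Of all 17024 genes tested there, 3481 had an unadjusted p under 0.05. DESeq2 called 1 (and 6.39% of all genes), Sqstm1, for which edgeR gave 0.91 ± 0.27 (adjusted p = 0.11). Without Tfam KO liver replicate 3, Sqstm1 (1.25) and Pink1 (-0.52) were called there, among 4204 genes called against 50 with all libraries.

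Neither diet nor the interactions of genotype with diet and with sex called a member. For HFD against RFD, edgeR called 0 of 10 members in control islets (0.0406% of all genes) and 0 of 10 in Clec16a KO islets (0.0116%). The differences ran from -0.13 to 0.14 in controls and from -0.11 to 0.14 in KO islets. The interaction of genotype with diet and that of Tfam genotype with sex each called 0 of 10 members and 0% of all genes. In these 4 comparisons no member had an unadjusted p under 0.05, and DESeq2 called none. Of all genes, 406 to 973 of 17254 were under it in the Clec16a islets and 1230 of 19752 in the Tfam islets.

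Other genes of the pathway were taken from lists of 59 genes, of which 58 were tested and Calcoco2 was not, with at most 2 counts in a library. In Tfam KO islets 14 of 58 rose and 5 fell, 32.8% against 20.9% of all genes. Among genes of the PINK1 and Parkin axis, Marchf5, a ubiquitin ligase of the outer membrane, rose by 0.48 ± 0.06 (adjusted p = 2.4e-05), Tomm20, a subunit of the import receptor, by 0.28 ± 0.08 (adjusted p = 0.017) and Tomm70a by 0.22 ± 0.06 (adjusted p = 0.018). Of the receptors outside the members, 1 of 5 rose, Bcl2l13 (0.27 ± 0.06, adjusted p = 0.0065). Of 6 genes listed with the adaptors, members left out, 2 fell. They were the kinase of optineurin, Tbk1 (-0.22 ± 0.05, adjusted p = 0.0048), and the adaptor Nbr1 (-0.21 ± 0.05, adjusted p = 0.0087). Of 9 regulators of the receptors 4 rose, among them Fbxl4, which restrains BNIP3 and NIX protein (0.36 ± 0.05, adjusted p = 1.7e-04), and Pgam5, the phosphatase of FUNDC1 (0.35 ± 0.06, adjusted p = 4.5e-04). Of 17 genes of LC3 lipidation 2 rose and 2 fell, Gabarapl1 by 0.28 and Gabarapl2 by -0.29 among them.

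In Clec16a KO islets over both diets 0 of 58 rose and 6 fell, 10.3% against 21.6% of all genes. They were Fbxo7, a cofactor of Parkin (-0.35 ± 0.08, adjusted p = 0.0040), the adaptors Tollip (-0.39 ± 0.08, adjusted p = 0.0016) and Calcoco1 (-0.39 ± 0.12, adjusted p = 0.028), Fbxl4 (-0.27 ± 0.08, adjusted p = 0.024), Pik3c3, the lipid kinase of autophagosome formation (-0.29 ± 0.07, adjusted p = 0.0044), and Egfr (-0.55 ± 0.13, adjusted p = 0.0060). On each diet alone 1 of 58 fell and 0 rose. Of 8 genes next to Clec16a on chromosome 16, 3 rose over both diets, as did 11.6% of all genes. They were Emp2 (0.48), Tvp23a (0.26) and Txndc11 (0.23). Neighbours were called in the other genotypes too, with 2 lower in Tfam KO islets (20.9% of all genes called in either direction). In Mfn DKO livers 1 was higher and 1 lower (9.87%), and in Tfam KO livers 2 were higher and 2 lower (29.3%).

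In Mfn DKO livers 1 of 58 rose and 7 fell, 13.8% against 9.87% of all genes. Parl, the protease that cleaves PINK1, fell by 0.48 ± 0.10 (adjusted p = 0.014), Fkbp8, a further outer-membrane receptor, by 0.52 ± 0.13 (adjusted p = 0.028), Map1lc3a, an LC3 gene, by 0.47 ± 0.10 (adjusted p = 0.014) and Atg7, the activating enzyme of LC3 lipidation, by 0.44 ± 0.11 (adjusted p = 0.025). The gene that rose was Wdfy3 (0.67 ± 0.15, adjusted p = 0.017). In Tfam KO livers 7 of 58 rose and 10 fell, 29.3% against 29.3% of all genes. Fkbp8 fell by 0.74 ± 0.15 (adjusted p = 0.0041), Ulk1, the kinase that starts autophagy, by 0.82 ± 0.15 (adjusted p = 0.0029), Foxo3 by 1.11 ± 0.23 (adjusted p = 0.0050) and Atg13 by 0.65 ± 0.13 (adjusted p = 0.0040). Huwe1, a ubiquitin ligase, rose by 1.11 ± 0.28 (adjusted p = 0.012) and Hif1a, the hypoxia factor, by 0.80 ± 0.17 (adjusted p = 0.0049).

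For each member the genes with the most alike pattern were found by the root mean square difference of centred mean log2 CPM over the 11 groups. The members varied over these groups by 0.30 (Usp8) to 3.62 (Optn) on the log2 scale. The nearest genes were Nr2c1 for Clec16a (difference 0.0587), Elp3 for Rnf41 (0.0640), Ccdc91 for Usp8 (0.0707), Bfar for Pink1 (0.0930) and Mief2 for Bnip3 (0.1499). They were Aak1 for Fundc1 (0.104), Idh3b for Phb2 (0.0659), Rpl23a for Sqstm1 (0.124) and Rnd3 for Optn (0.194). The nearest gene to Bnip3l was Gm10033 (0.0787). The difference between islets and livers makes up most of such a pattern where a member differs between the tissues. These are descriptions with no test.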

How the data were processed

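RNA was sequenced from islets and livers in 46 libraries of 11 labelled groups. Per the file headers, a file gives for each gene a raw count, a TPM and a CPM. The deposited counts are whole numbers and were used unchanged. The authors' CPM equal the count over the library total, and the authors' TPM have the same sum in every library. The submitters' processing notes name FastQC, MultiQC, STAR 2.6.1b, RSEM 1.3.1, featureCounts, DESeq2 and GRCm38. The settings and the strand used in counting are not given in the sources used here. Of 55487 identifiers, 55227 were found in GENCODE M21, whose positions are given.

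Each experiment was fitted alone to the counts with edgeR 4.0.16 in R 4.3.3 (TMM scaling, filterByExpr on the group, quasi-likelihood F-test, two-sided, Benjamini-Hochberg adjustment over all genes tested, called at 0.05). The Tfam islet fit had sex as an additive term, and the others had 1 mean per group. CPM in the text use TMM-scaled library sizes. Changes are log2 fold changes ± SE, and levels are means ± SD. The filter left 19752, 17254 and 17024 genes in the Tfam islets, Clec16a islets and livers. The fits were also tested on simulated counts.

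Alternatives were the size factors and Wald test of DESeq2 1.42.0, no filter, at least 10 counts in every library, leaving out each library, the replicate number as a block, scores of acinar markers, lane or Xist as covariates, no sex term, and only the groups compared. Total-count scaling, the endothelial score and 2 joint fits were added after seeing the data. Same-numbered libraries did not deviate together (median correlation 0.0653, -0.0163 and 0.0873 in the 3 experiments), so they were not treated as pairs. The labels call replicates biological but do not say how many animals each holds, so p-values measure the spread between these libraries. The closest 2 libraries of a group differed by more than counting noise.

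The members and the lists were chosen with earlier results of these data known. Named are all members, the targeted genes, at most 3 called genes of a list by smallest adjusted p and, per member, the nearest gene by pattern. Genes named beyond that were chosen after their values were seen. Protein sequences were not used here.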

Additional observations from a re-analysis of the deposited data

Results flagged for a closer look

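The effect of Tfam KO differed between livers and islets for 4 members in the joint fit. The effect in livers minus that in islets was -0.84 for Bnip3, -0.47 for Bnip3l, 0.57 for Fundc1 and -0.62 for Optn. Optn rose in islets, and in livers its difference was 0.21. The fit was added after the data were seen, and tissue and experiment cannot be told apart.

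In 80 pairs of a member and a group of 4 to 6 libraries, 5 had a library far from the others, and chance alone gives about 1 in 20. Rnf41 stood at 15.8 CPM in control liver replicate 3, where the other 5 ran from 10.98 to 12.7 CPM. Rnf41 stood at 14.7 CPM in Mfn DKO liver replicate 4, where the others ran from 11.8 to 12.2 CPM. Usp8 stood at 71.4 CPM in Tfam control female replicate 4, where the others ran from 96.9 to 105.0 CPM. Clec16a KO RFD replicate 2 stood apart in Bnip3, at 47.3 CPM with the others from 36.2 to 36.5 CPM, and in Phb2, at 66.0 CPM with the others from 75.7 to 77.1 CPM.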

How the results depend on the processing

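Of 2270 fits of a member under an alternative, 2164 kept the call and direction or called it in neither fit. Of these 2164, 1920 were called in neither fit, and 161 of those 1920 changed sign. A call was lost in 88 fits and gained in 15, and 3 changed sign and were called under the alternative. These 3 were not called in the main fit and came under total-count scaling. With it Rnf41 in Tfam KO islets was 0.17, and Clec16a and Phb2 in Tfam KO livers were 0.43 and 0.41. That scaling moved the median of all genes by 0.21 in Tfam KO islets, 0.19 in Mfn DKO livers and 0.43 in Tfam KO livers, and the share of higher calls from 55.5% to 91.0%, 53.0% to 82.2% and 61.6% to 88.9%. Under it, the members called numbered 6 in Tfam KO islets (34.6% of all genes), 1 in Mfn DKO livers (11.8%), 8 in Tfam KO livers (47.9%) and 1 for Tfam KO against Mfn DKO livers (7.20%). It left Bnip3 in islets at -0.03, and Bnip3l and Pink1 in Tfam KO livers at -0.09 and -0.13, none of them called. Bnip3l in Mfn DKO livers was -0.26 with this scaling and was also not called. In Clec16a KO islets it moved that median by 0.12 on HFD, where Optn (-0.41) was not called, and 0.08 over both diets. Without the filter 2 members were called in Tfam KO islets (10.7% of all genes) and 1 in Clec16a KO islets over both diets (10.8%). With the acinar score 1 was called over both diets (24.1%), and with the endothelial score 0 there, on RFD and on HFD (0% of all genes in each). With only the groups compared, 5 were called in Mfn DKO livers and 4 in Tfam KO livers (27.0% and 19.6% of all genes). The Wald test called 1 between Tfam KO and Mfn DKO livers.

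With the replicate number as a block, 3 members were called in Tfam KO islets (20.3% of all genes). In Clec16a KO islets 1 was called on RFD (5.66%), 0 on HFD (5.65%) and 1 over both diets (18.4%). In livers 0 were called in Mfn DKO (0.993%) and 0 in Tfam KO (2.32%). All genes called then numbered 169 in Mfn DKO livers against 1681 and 395 in Tfam KO livers against 4992. The numbers pair no libraries in the labels, and the block leaves fewer degrees of freedom.

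Leaving out 1 library at a time, the members called ran from 2 to 4 in Tfam KO islets, 0 to 1 on RFD, 0 to 1 on HFD, 1 to 3 over both diets, 1 to 2 in Mfn DKO livers, 3 to 6 in Tfam KO livers and 0 to 2 between the liver genotypes. They were 0 to 0 for diet and both interactions. All genes called ran from 3096 to 4995 in Tfam KO islets, 523 to 1224 on RFD, 786 to 3369 on HFD, 3086 to 5012 over both diets, 686 to 1444 in Mfn DKO livers, 2504 to 7330 in Tfam KO livers and 24 to 4204 between the liver genotypes.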
